A study of Mus musculus with 6 samples.

Results

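ADAMTS proteases are secreted zinc metalloproteases that cut the extracellular matrix and blood proteins, and 10 of their genes were followed here in the hind limb muscle of mice that lack Baf155 in muscle fibres. The 10 genes, Adamts1, Adamts2, Adamts4, Adamts5, Adamts8, Adamts9, Adamts10, Adamts13, Adamts15 and Adamts20, were found by symbol among the 20632 genes of the deposited table, which holds 19 genes of the family. They were selected on measured values, since the higher level of Adamts13 in these same mice prompted the choice of the family, and their differences between genotypes are therefore given as descriptions. Each of the 6 libraries held total RNA from the pooled hind limb muscles (tibialis anterior, extensor digitorum longus, gastrocnemius, soleus and quadriceps) of 1 unexercised mouse, 3 months old and labelled C57BL/6 (the methods of the study give a C57BL/6J background). The control mice (Baf155WT, n = 3, labelled wild type) were Baf155 f/f without Cre, and the Baf155ΔMF mice (n = 3, labelled Baf155 -/-) were MCK-Cre; Baf155 f/f. MCK-Cre is expressed from the muscle creatine kinase promoter, in skeletal and cardiac muscle, so the other cells of the tissue keep Baf155.

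ADAMTS proteases are made with a propeptide, which furin-type convertases remove in most members. The catalytic domain is followed by thrombospondin repeats, which place many of the enzymes in the matrix. Members divide by substrate into the proteoglycanases, which cut versican and aggrecan, the procollagen N-proteinases, which trim the amino ends of fibrillar collagens, a fibrillin-associated group, and ADAMTS13, which cuts von Willebrand factor into less adhesive multimers. ADAMTS13 of the blood is made mainly by hepatic stellate cells, and endothelial cells also make it. C57BL/6 mice are known to carry an intracisternal A particle insertion in Adamts13 that gives a shortened form of the enzyme beside the full one.

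The thrombospondin repeats and ancillary domains set the family apart, while the zinc-binding site of the catalytic domain is common to many metalloproteases. The coding sequence of this site is shown because it was found in all 10 members and lets them be compared. The sequences were read 5′ to 3′ on the coding strand of GENCODE M21 transcripts (GRCm38), 36 bases each, and the capitals mark the codons of the 3 histidines that hold the zinc ion.
Adamts13: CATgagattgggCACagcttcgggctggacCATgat
Adamts10: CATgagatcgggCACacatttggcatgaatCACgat
Adamts8: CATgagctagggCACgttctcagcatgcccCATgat
Adamts5: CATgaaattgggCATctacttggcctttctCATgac
Adamts2: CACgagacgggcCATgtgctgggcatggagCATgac
Adamts1: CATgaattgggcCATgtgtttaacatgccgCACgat
Adamts9: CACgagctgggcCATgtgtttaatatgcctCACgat
Of these 36 bases, 27 were the same as in Adamts13 in Adamts10, which was the closest member, and 19 were the same in Adamts1 and Adamts9, which were the least close. Adamts8 shared 25 bases, Adamts4 and Adamts5 shared 23, Adamts2 and Adamts15 shared 22, and Adamts20 shared 20.

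Before the members are described, the libraries were checked. Total counts ranged from 8426022 to 12469335 per mouse. As a reference for low levels, 3 counts were worth between 0.23 and 0.351 CPM, the TMM-normalized scale used throughout, for counting error only. Some values below this reference are also given. Smarcc1, the gene of Baf155, was at 23.4, 19.5 and 17.0 CPM in Baf155WT muscle and at 7.05, 6.54 and 7.72 CPM in Baf155ΔMF muscle, as labelled. Muscle fibre marker genes summed to 176809 to 217270 CPM over the 6 mice. The sample titles begin with MS13 (1 Baf155WT and 2 Baf155ΔMF mice), MS15 (2 Baf155WT mice) or MS14 (1 Baf155ΔMF mouse), and the labels do not say what the prefix is. The MS15 mice stood apart on the first principal component (25.0 and 22.5, against -17.1 to -1.56 for the other 4 mice). Genotype and prefix cannot be told apart for the 3 mice outside MS13, so the ratio within MS13 (mean of 2 Baf155ΔMF mice over 1 Baf155WT mouse, with no test) is given beside the difference of each member. In the order used below, values are listed for the MS13 mouse and then the MS15 mice in Baf155WT, and for the MS13 mice and then the MS14 mouse in Baf155ΔMF.

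Adamts13 was the only member with enough counts to be tested whose genotypes did not overlap. Adamts13 lies on the forward strand of chr2:26973416-27009628 (GRCm38, GENCODE M21), and no other gene of GENCODE M21 overlaps its exons. RefSeq also places a long noncoding RNA gene, Gm36649, over its start, at chr2:26970009-26985818. Its estimated counts were 96.2, 108 and 68.2 in Baf155WT mice and 121, 144 and 107 in Baf155ΔMF mice. On the CPM scale these were 9.33, 8.26 and 6.07 in Baf155WT muscle and 12.9, 14.95 and 12.5 in Baf155ΔMF muscle. The lowest Baf155ΔMF mouse was above the highest Baf155WT mouse, and the MS13 Baf155WT mouse was the highest of its genotype. The means were 7.89 ± 1.66 CPM and 13.5 ± 1.31 CPM (SD, n = 3), a log2 fold change of 0.77 (standard error 0.165). Within MS13 the log2 ratio was 0.58. In edgeR's quasi-likelihood test with Benjamini-Hochberg adjustment over all 12116 genes tested, the adjusted p of Adamts13 was 0.367, and its unadjusted p (0.000655) was the 21st smallest. Of all 12116 genes tested, 5.2% were higher without overlap in Baf155ΔMF mice and 5.57% were lower without overlap.

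The summed level of the endothelial marker genes, a cell type that can make ADAMTS13, was 484, 420 and 426 CPM in Baf155WT mice and 503, 533 and 478 CPM in Baf155ΔMF mice. The genotypes overlapped in this sum. All 9 of these markers had a log2 fold change above 0 (median 0.29), none passed an adjusted p of 0.05, and none was at 0 counts. This was not particular to endothelial markers. The log2 ratio of the mean sums was 0.19 for them and 0.25 for pericyte and smooth muscle markers, of which 6 were above 0 and 2 below 0. The part of any of these cells in the level of Adamts13 was not tested. In bulk muscle, a change in the number of cells of a type and a change in RNA per cell cannot be told apart.

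**Figure D1:**
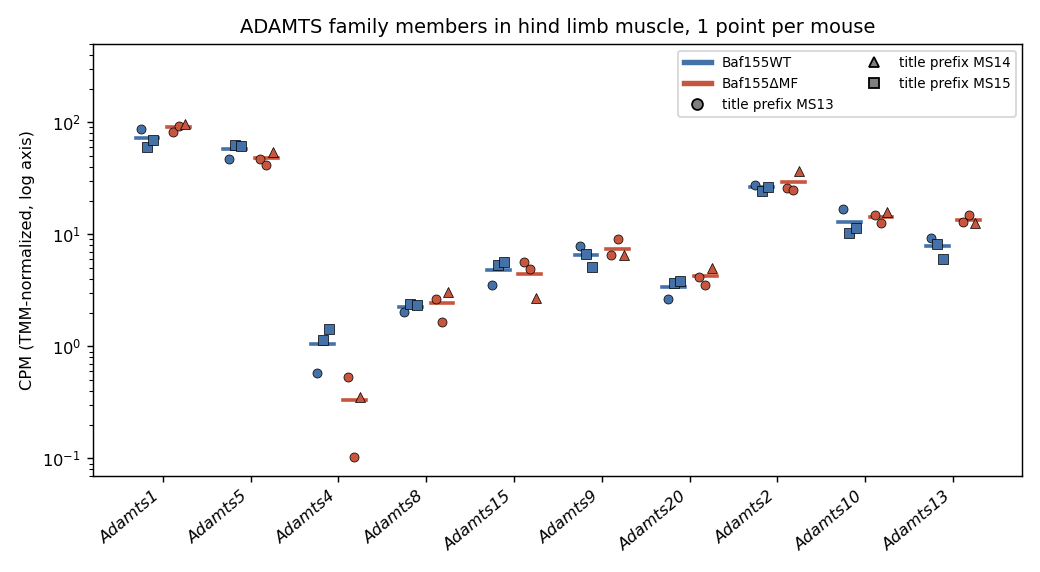
TMM-normalized CPM of the 10 members in each mouse, on a log axis, with Baf155WT in blue and Baf155ΔMF in red, 1 point per mouse, point shape for the title prefix and a line at the mean of 3 mice. The Adamts13 values of Baf155ΔMF mice (12.5 to 14.95 CPM) sit above those of Baf155WT mice (6.07 to 9.33 CPM), Adamts4 is the other member whose genotypes are apart, at 1 to 16 counts per mouse, and the remaining members overlap.

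The proteoglycanases made up most of the reads of these genes. Adamts1, which cuts versican and aggrecan, was at 87.8, 60.4 and 70.0 CPM in Baf155WT mice and at 82.1, 92.0 and 96.0 CPM in Baf155ΔMF mice. The MS13 Baf155WT mouse lay within the range of the Baf155ΔMF mice and the MS15 mice lay below it, so the genotypes overlapped. The log2 fold change of Adamts1 was 0.31 (standard error 0.13) over the 6 mice and -0.013 within MS13. Adamts5, the main aggrecanase of mouse cartilage, was at 47.5, 63.3 and 61.6 CPM in Baf155WT mice and at 47.0, 41.4 and 54.3 CPM in Baf155ΔMF mice. Here too the MS13 Baf155WT mouse lay among the Baf155ΔMF mice. The log2 fold change of Adamts5 was -0.28 (standard error 0.132) over the 6 mice and -0.10 within MS13. Adamts1 and Adamts5 are neighbours on chromosome 16, on the same strand and 53059 bases apart with 0 protein-coding genes between them, and their fitted differences were of opposite sign.

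Adamts4, the other classical aggrecanase, was near the limit of detection and did not pass the filter on low counts. It had 6, 15 and 16 counts in Baf155WT mice and 5, 1 and 3 counts in Baf155ΔMF mice. On the CPM scale these were 0.583, 1.15 and 1.43 against 0.534, 0.104 and 0.351, so the genotypes did not overlap, but the MS13 Baf155WT mouse was 1 count above the highest Baf155ΔMF mouse. Summed over mice, 37 counts stood against 9, a ratio of Baf155ΔMF over Baf155WT of 0.305 (exact 95% interval 0.130 to 0.644, for counting error only). In the fit without the filter the log2 fold change was -1.67 (standard error 0.572, edgeR adjusted p = 0.446), a value that depends on the prior count at this depth. Macrophage and leukocyte markers summed to 107, 324 and 263 CPM in Baf155WT mice and to 104, 103 and 168 CPM in Baf155ΔMF mice. In these sums the MS13 Baf155WT mouse lay within the Baf155ΔMF range. All 7 of these markers had a log2 fold change below 0 (median -0.88), none passed an adjusted p of 0.05 and none was at 0 counts. All tested tendon (6), adipocyte (5), muscle stem cell (4) and hepatic stellate (3) markers were also below 0, and all 9 endothelial markers were above 0. The part of any of these cells in the level of Adamts4 was not tested.

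The remaining proteoglycanases were at low levels and overlapped between genotypes. Adamts9, a versican-cleaving protease, was at 7.87, 6.66 and 5.09 CPM in Baf155WT mice and at 6.51, 9.14 and 6.55 CPM in Baf155ΔMF mice, a log2 fold change of 0.19 (standard error 0.202) and -0.0083 within MS13. Its close relative Adamts20 was at 2.62, 3.67 and 3.84 CPM in Baf155WT mice and at 4.16, 3.53 and 5.03 CPM in Baf155ΔMF mice, a log2 fold change of 0.31 (standard error 0.224). Adamts20 thus had about the same fitted difference as Adamts1, with a wider error and a value of 0.55 within MS13. Adamts15 was at 3.50, 5.28 and 5.62 CPM in Baf155WT mice and at 5.66, 4.88 and 2.69 CPM in Baf155ΔMF mice. The MS14 mouse was the lowest of all, and the log2 fold change was -0.12 (standard error 0.271) over the 6 mice but 0.59 within MS13. Adamts8, which lies beside Adamts15 on chromosome 9 (20109 bases away on the opposite strand, with 0 protein-coding genes between them), was at 1.66 to 3.04 CPM in the 6 mice, with a log2 fold change of 0.12 (standard error 0.271) and 0.086 within MS13. The exons of Adamts8 and Adamts9 overlap antisense or opposite-strand genes, and whether the authors' counting used strand is not given in the sources used here.

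The procollagen N-proteinase of the set, Adamts2, was at 27.7, 24.6 and 26.6 CPM in Baf155WT mice and at 25.8, 24.8 and 36.8 CPM in Baf155ΔMF mice. A single mouse, MS14, was above the others, and the log2 fold change was 0.15 (standard error 0.147) over the 6 mice and -0.13 within MS13. Adamts10, which binds fibrillin microfibrils and cuts few substrates by itself, was at 16.8, 10.3 and 11.4 CPM in Baf155WT mice and at 14.8, 12.7 and 15.7 CPM in Baf155ΔMF mice. The highest value was that of the MS13 Baf155WT mouse. The log2 fold change of Adamts10, the member with the site most like that of Adamts13, was 0.17 (standard error 0.18) over the 6 mice and -0.29 within MS13.

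Counted together, 9 of the 10 members passed the filter on low counts and Adamts4 did not. None of the 9 had an adjusted p under 0.05 in edgeR, in DESeq2 or in limma voom, and over all genes 0.0248% (3 of 12116) did in edgeR. An unadjusted p under 0.05 was found for 2 of the 9 (Adamts1 and Adamts13), against 7.95% of all genes tested. A rule of a fold change over 1.4 or under 0.7 at an unadjusted p under 0.01 was also applied. The fold limits follow those used by the authors, and joining them to this p was a choice made here. By this rule Adamts13 was the 1 member called, as higher. The call was lost, with an unadjusted p above 0.01, with a term for the title prefix (log2 fold change 0.58, edgeR adjusted p = 0.793) and without the MS15 mice (log2 fold change 0.53, edgeR adjusted p = 0.999). These limits called 0.305% of all genes as higher and 0.809% as lower (37 and 98 genes, or 13 higher of 124 in all when only the library size was used for scaling). Among the other 8 tested members, 6 log2 fold changes were above 0 and 2 were below 0, from -0.28 to 0.31. These counts come from the contrast on which the set was selected, and the difference between Adamts13 and the other members was not tested.

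**Figure D2:**
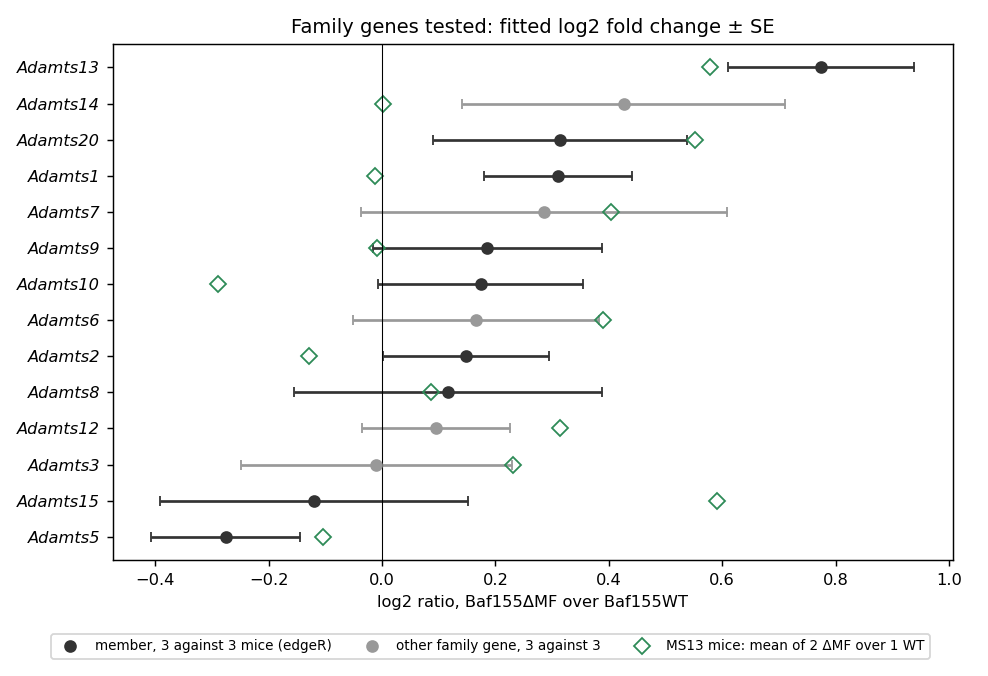
Fitted log2 fold change (Baf155ΔMF over Baf155WT, edgeR, 3 against 3 mice) with its standard error for the 14 tested genes of the family, members in black and others in grey, and the log2 ratio within the MS13 mice as an open diamond. Adamts13 is farthest to the right at 0.77, its diamond at 0.58 is close to those of Adamts15 (0.59) and Adamts20 (0.55), and the diamonds of Adamts1, Adamts2, Adamts5, Adamts9 and Adamts10 lie below 0.

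Within MS13, 4 members were above 0 and 6 were below 0, and Adamts13 was no longer the highest. Its log2 ratio of 0.58 there was followed closely by those of Adamts20 and exceeded by that of Adamts15, both at a lower level than Adamts13, with 1 Baf155WT mouse behind each ratio. Over the alternatives tried, the log2 fold change of Adamts13 stayed above 0 in 15 of 15, from 0.53 to 0.90. Its genotypes did not overlap, so leaving out mice could not be expected to reverse this, and the count is a description only. The fit with a prefix term and that of the MS13 mice alone both take the difference from the MS13 mice (0.58 in each). Adamts13 passed an adjusted p of 0.05 in 1 of the alternatives, the fit without the MS13 Baf155WT mouse (log2 fold change 0.90, edgeR adjusted p = 0.00472). In that same fit Adamts1 (0.47, edgeR adjusted p = 0.012) and Adamts5 (-0.39, edgeR adjusted p = 0.04) passed as well, and so did 955 genes in all. Over all alternatives the adjusted p of Adamts13 ranged from 0.00472 to 0.999.

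**Figure D3:**
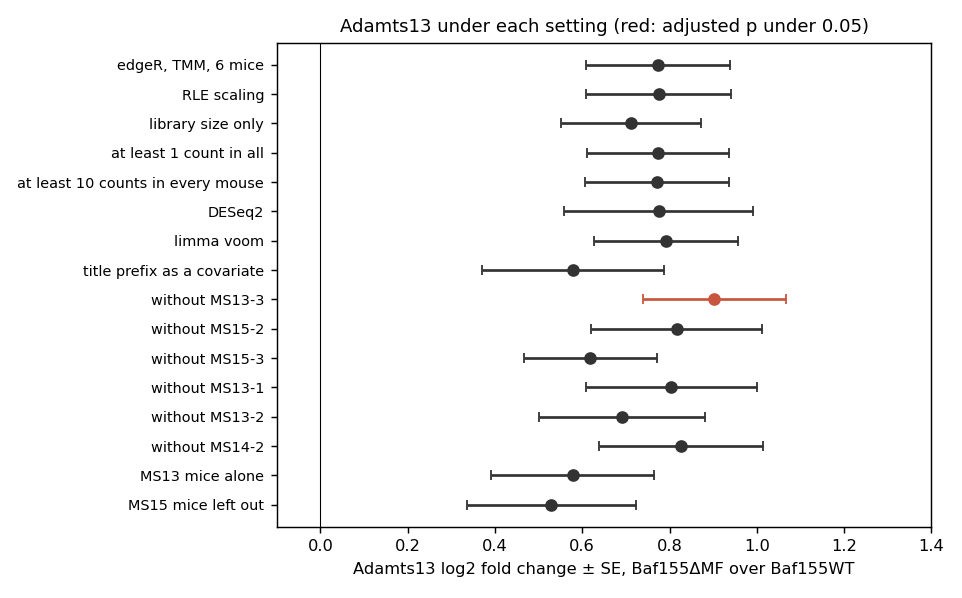
Log2 fold change of Adamts13 with its standard error under the reported fit and 15 alternatives, including each mouse left out in turn. All values lie between 0.53 and 0.90, and the fit without the MS13 Baf155WT mouse (red) is the 1 alternative with an adjusted p under 0.05.

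The order of the levels was compared per length, as CPM per kilobase of annotated exons. In Baf155WT muscle Adamts1 was highest at 13.7 ± 2.62 (SD, n = 3), followed by Adamts5 at 5.32 ± 0.802 and Adamts2 at 2.82 ± 0.17. Adamts13 (1.60 ± 0.338) and Adamts10 (1.55 ± 0.424) came next and did not differ beyond their spread. Adamts8, Adamts15, Adamts9 and Adamts20 lay between 0.375 and 0.486, with neighbours in this order closer than their spread, and Adamts4 was lowest at 0.219 ± 0.0895. In Baf155ΔMF muscle the first 4 places were held by Adamts1 (17.0 ± 1.35), Adamts5 (4.41 ± 0.596), Adamts2 (3.12 ± 0.714) and Adamts13 (2.73 ± 0.265), the last pair overlapping in their spread. Adamts13 made up 4.53%, 4.44% and 3.13% of the summed CPM of the 10 members in Baf155WT mice and 6.39%, 7.29% and 5.37% in Baf155ΔMF mice. The summed CPM of the 10 members was 206, 186 and 194 in Baf155WT mice and 202, 205 and 233 in Baf155ΔMF mice, which overlap. Without Adamts13 it ranged from 178 to 196.5 in Baf155WT mice and from 189 to 220.4 in Baf155ΔMF mice.

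The transcripts of Adamts13 share sequence with other genes. Fractional estimates, which arise when reads are split, were found in 6 of 6 mice for Adamts13 and for Adamts2, while the other 8 members had whole counts in every mouse. Of the 4874 stretches of 50 bases in the transcripts of Adamts13, 176 (3.61%) also occurred on the same strand in transcripts of 7 other genes, against 0.668% for Adamts2 and 0.0338% for Adamts10. On the opposite strand, 185 stretches of Adamts13, 396 of 4611 of Adamts8 and 1579 of 14998 of Adamts9 occurred in other genes. The 176 same-strand stretches of Adamts13 all lie in its shorter annotated coding transcript (3474 bases), and none lies in the longer one (4506 bases). The opposite-strand stretches were not placed in the transcripts. The short transcript's open reading frame of 1037 residues ends inside the shared block, and the long transcript's frame has 1426 residues. The last 45 coding bases of the short transcript are shown because they lie in the shared block and do not occur as a whole in the long transcript, with the stop codon in capitals.
Adamts13 short transcript, bases 3191 to 3235: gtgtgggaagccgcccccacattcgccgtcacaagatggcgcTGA
The gene table holds a single value per gene, so the level of each form in these mice was not analysed here.

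The other 9 genes of the family were not part of the selection by name but come from the same mice. Of these, 5 passed the filter, and 4 had log2 fold changes above 0 and 1 below 0, from -0.010 (Adamts3) to 0.43 (Adamts14, a procollagen N-proteinase, standard error 0.285, and 0.0011 within MS13), with edgeR adjusted p from 0.681 to 0.991. None of the 5 had genotypes that did not overlap. The most abundant was Adamts12, at 11.3, 13.3 and 12.2 CPM in Baf155WT mice and 13.9, 14.1 and 11.3 CPM in Baf155ΔMF mice, with a log2 fold change of 0.095 (standard error 0.131) and 0.31 within MS13. Adamts16, Adamts17, Adamts18 and Adamts19 were too low to be tested, with 0 to 17 counts per mouse. Over the 14 tested genes of the family the median log2 fold change was 0.17, beside -0.00095 over all genes tested, with 11 above 0 and 3 below 0. Adamts13, which prompted the choice of the family, is among the 11. Of all genes tested, 6033 were above 0 and 6083 below 0.

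Genes that act with these proteases were counted in lists. Of the ADAMTS-like proteins, relatives without a protease domain, 2 of 7 were above 0 and 5 below 0 (median log2 fold change -0.17). The most abundant were Adamtsl3 (25.9 ± 3.92 against 20.2 ± 3.53 CPM), Adamtsl4 (19.05 ± 2.22 against 18.2 ± 0.518 CPM) and Adamtsl5 (18.9 ± 1.02 against 20.2 ± 1.15 CPM). Papln, the other gene above 0 and named here after its values were seen, had a log2 fold change of 0.70 (standard error 0.318) but -0.039 within MS13. Among inhibitors, clearance receptors and cofactors, 1 of the 7 tested genes was above 0 (median -0.22), and this was Timp3, the main inhibitor of the aggrecanases, at 186 ± 19.1 against 192 ± 20.3 CPM. Lrp1, the endocytic receptor that clears ADAMTS5, was at 481 ± 57.5 against 433 ± 77.7 CPM, and Timp2 at 158 ± 21.6 against 136 ± 25.9 CPM. The enzymes of ADAMTS maturation were divided, with 4 above 0 and 4 below 0 (median -0.039). They include Furin, which removes the propeptide, at 35.4 ± 1.57 against 35.9 ± 1.96 CPM, Pcsk6 at 63.1 ± 12.5 against 47.5 ± 10.9 CPM and Pofut2, which adds fucose to thrombospondin repeats, at 29.9 ± 1.75 against 28.0 ± 1.30 CPM.

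The substrates were mostly at overlapping levels. Of the proteoglycan substrates and link proteins 3 of 10 were tested (median -0.16), and versican (Vcan) was at 42.3 ± 8.80 against 38.1 ± 8.58 CPM. The small proteoglycans in that list, Dcn (972 ± 211 against 723 ± 98.9 CPM) and Bgn (55.4 ± 4.14 against 56.7 ± 15.4 CPM), were the others. Of the procollagens and their C-proteinase partners 5 of 9 tested genes were above 0 (median 0.14). Col3a1 was at 456 ± 27.1 against 564 ± 192 CPM, Col1a2 at 326 ± 29.9 against 365 ± 111 CPM and Col1a1 at 210 ± 46.1 against 270 ± 96.2 CPM, but within MS13 their log2 ratios were -0.014, -0.13 and -0.16. Of the fibrillin partners 3 of 7 tested genes were above 0 (median -0.071), with Fbn1 at 268 ± 38.0 against 232 ± 8.59 CPM, Fn1 at 238 ± 43.8 against 187 ± 43.8 CPM and Ltbp4 at 92.2 ± 4.79 against 92.2 ± 9.06 CPM. Named here after their values were seen, Sdc4 (62.2 ± 8.76 against 47.1 ± 4.22 CPM, a cofactor) and Mfap5 (19.8 ± 1.76 against 14.2 ± 2.89 CPM, a microfibril protein) were lower without overlap, and Dpy19l3 (5.67 ± 0.149 against 6.38 ± 0.258 CPM, a maturation enzyme) was higher without overlap. No gene of these lists had an adjusted p under 0.05 in edgeR.

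The von Willebrand factor axis, on which ADAMTS13 acts, had most of its values below 0. Of 7 tested genes, 2 were above 0 and 5 below 0 (median -0.19). Vwf, the substrate itself, was at 35.1, 24.2 and 22.2 CPM in Baf155WT mice and at 30.5, 28.0 and 30.4 CPM in Baf155ΔMF mice, a log2 fold change of 0.13 (standard error 0.157) and -0.26 within MS13. Thbs1, which encodes thrombospondin 1, a protein that binds von Willebrand factor, was at 45.4, 64.9 and 52.9 CPM in Baf155WT mice and at 28.1, 38.7 and 35.5 CPM in Baf155ΔMF mice. The genotypes did not overlap, and Thbs1 was the 1 gene of these lists past the fold and p limits, with a log2 fold change of -0.68 (standard error 0.149, edgeR adjusted p = 0.404) and -0.44 within MS13. Clu, also in this list, was at 53.8 ± 9.88 against 45.2 ± 5.09 CPM. Gp1ba, beside Vwf the other gene above 0 and named here after its values were seen, was at 2.00 ± 0.419 against 2.81 ± 0.454 CPM. The log2 fold change of Gp1ba was 0.50 (standard error 0.262) and 0.21 within MS13. Platelet markers summed to 8.36 to 13.6 CPM in Baf155WT mice and 5.61 to 10.1 CPM in Baf155ΔMF mice.

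**Figure D4:**
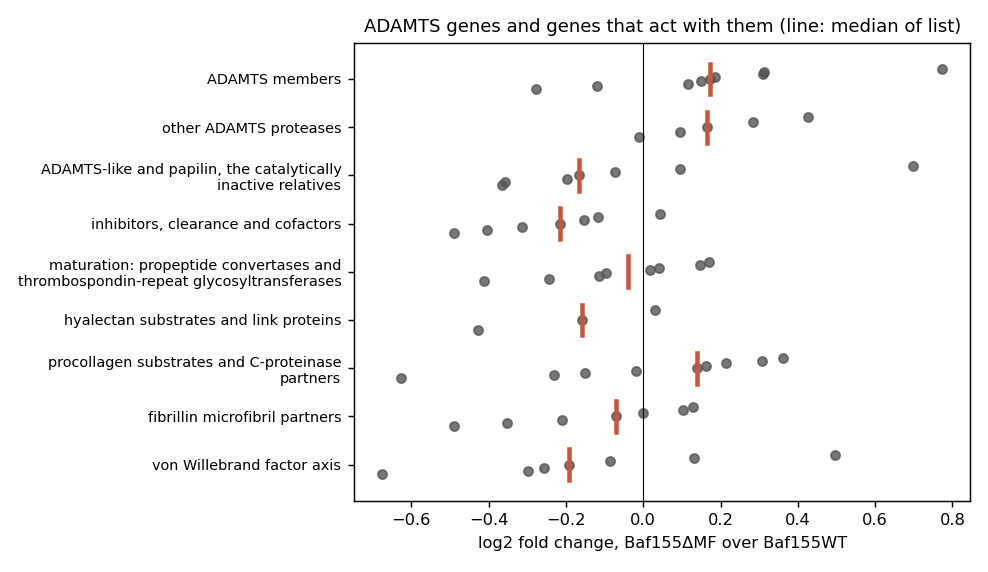
Log2 fold change (Baf155ΔMF over Baf155WT, edgeR) of every tested gene in the members' list and in 8 lists of related genes, 1 point per gene, with a red line at the median of each list. Medians run from -0.22 for inhibitors to 0.17 for the members, and the points farthest from 0 are Adamts13 (0.77), Papln (0.70) and Thbs1 (-0.68).

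The genes on either side of Adamts13 were read by position. Cacfd1, which encodes a membrane protein with a flower domain, starts 230 bases after the end of Adamts13 on the same strand in the RefSeq annotation of GRCm38.p6. Its level was 8.65, 7.57 and 8.30 CPM in Baf155WT mice and 12.9, 10.2 and 11.1 CPM in Baf155ΔMF mice, so its genotypes did not overlap either. The log2 fold change of Cacfd1 was 0.48 (standard error 0.14, edgeR adjusted p = 0.601) and 0.42 within MS13. On the other side Rexo4 (8975 bases away) had a log2 fold change of -0.085, and Surf4, Surf2, Surf1 and Rpl7a, farther along, had values from -0.25 to -0.037. Surf4 was lower without overlap, at 138 ± 2.51 against 128 ± 4.51 CPM. Adamtsl2, which follows 69711 bases after Adamts13, had a log2 fold change of -0.20 (standard error 0.271). Slc2a6 and Mymk, between Cacfd1 and Adamtsl2, were too low to be tested.

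**Figure D5:**
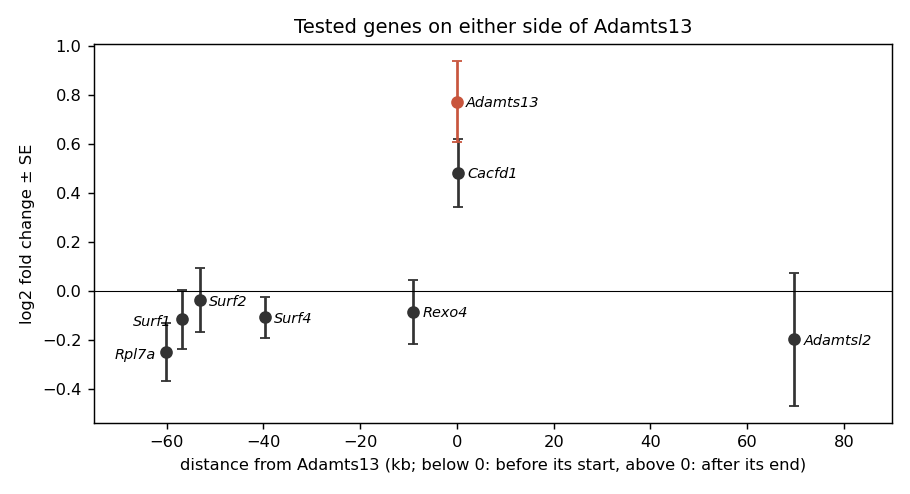
Log2 fold change with its standard error of the tested genes on either side of Adamts13 against their distance in kilobases, with genes before its start on the left. Adamts13 (red, 0.77) and Cacfd1 (0.48), 230 bases after it, are above 0, and the other 6 genes lie between -0.25 and -0.037.

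The genes whose pattern over the 6 mice was most like that of Adamts13, by the root mean square difference of mean-centred log2 CPM among 12115 other genes, were Igsf9b (0.101), Gm10408 (0.106), Hmmr (0.142), Dysf (0.146) and Hira (0.163). No ADAMTS gene was among them, but so few of the 12115 genes were taken that this says nothing of the family. Adamts13 was chosen for its difference between genotypes, so a match to its pattern favours genes with such a difference. Igsf9b (13 to 26 estimated counts per mouse) and Gm10408 (4.98 to 15.98) were at low counts. Dysf, which encodes the membrane repair protein dysferlin, was at 61.1 ± 7.65 CPM in Baf155WT and 97.4 ± 4.54 CPM in Baf155ΔMF muscle. The same 6 mice and libraries lie behind each of these values.

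The other marker lists were summed in the same way, as ranges over Baf155WT and then Baf155ΔMF mice. Fibroblast and fibro-adipogenic markers summed to 3444 to 4570 and 3043 to 4563 CPM, tendon markers to 238 to 317.5 and 198 to 294 CPM, and pericyte and smooth muscle markers to 678 to 841 and 815 to 951 CPM. Muscle stem cell markers summed to 70.7 to 87.2 and 57.8 to 67.6 CPM, adipocyte markers to 34.7 to 72.6 and 30.01 to 43.6 CPM, and Schwann cell markers to 63.0 to 73.0 and 60.65 to 72.0 CPM. Genes that mark hepatic stellate cells, which muscle fibres also express in the case of Des, summed to 2471 to 2676 and 2302 to 2619 CPM. Muscle stem cell markers alone did not overlap among these lists. Most of their sum was Sdc4, which was also counted among the cofactors. Sdc4 by itself was at 53.3, 62.4 and 70.85 CPM in Baf155WT mice and at 48.05, 42.5 and 50.75 CPM in Baf155ΔMF mice. Its log2 fold change was -0.40, while the median of the 4 tested stem cell markers was -0.062, so the sum mainly reflects Sdc4. No marker passed an adjusted p of 0.05 in edgeR, and the part of these cells in the levels of the ADAMTS genes was not tested.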

How the data were processed

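For each gene the authors deposited an expected count, an estimate without normalization, covering 20632 genes in 6 mice. The submitters' processing notes name CASAVA 1.8.2, cutadapt 1.10, Bowtie2 2.2.7, TopHat2 2.1.1, RSEM 1.2.30, limma and the builds mm10 and GRCm38; the annotation is not given in the sources used here. The libraries were made with a stranded total RNA kit.

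Counts were rounded, and genes were kept by filterByExpr (minimum count 10, minimum total 15), which left 12116. edgeR 4.0.16 in R 4.3.3 compared genotypes by its quasi-likelihood F test with TMM normalization and no covariate, adjusted by Benjamini-Hochberg over all genes tested. The comparison was tested on simulated data with genes changed by known folds. Alternatives were DESeq2 1.42.0, limma 3.58.1 (voom), other scalings and filters, a title prefix covariate, and fits without each mouse. With 3 mice against 3, the p-values weigh the difference between genotypes against the spread between these mice, estimated with information shared across genes. Since genotype and title prefix cannot be told apart outside MS13, they do not isolate genotype. Members and lists were chosen with earlier results of these data known. Named genes were all members, list genes past the limits and the 2 to 4 most abundant of each list, the neighbours of Adamts13, the 5 genes most like it and Smarcc1. Zinc sites were searched in the longest open reading frame, and the pattern was widened at 1 position after a narrower one was found in only some members. Positions and exon lengths are from GENCODE M21, and neighbours from RefSeq. A search of the promoters of some members for short motifs was also made and is not reported, since no measurement here bears on promoters.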

Additional observations from a re-analysis of the deposited data

How the results depend on the processing

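The log2 fold change of Adamts13 kept its direction in all 15 alternatives, from 0.62 to 0.90 when each mouse was left out in turn. Because its genotypes did not overlap, leaving out mice could not be expected to reverse the direction, so this count does not test the difference. At an adjusted p under 0.05, 3 genes were called in the reported fit, 17 with every gene of at least 1 count, 22 with DESeq2, 5 with limma voom and 16 with a term for the title prefix, and the count ranged from 0 to 955 when each mouse was left out. It was 0 in edgeR without the MS15-2 mouse and without the MS13-2 mouse, where 451 and 568 genes had an unadjusted p under 0.05, and 955 without the MS13 Baf155WT mouse. The number past the fold and p limits was 135 in the reported fit, 266 with every gene of at least 1 count, and 58 to 727 with a mouse left out. With a term for the title prefix the direction reversed for Adamts1 (-0.013), Adamts2 (-0.13), Adamts9 (-0.0060), Adamts10 (-0.29) and Adamts15 (0.59). With a mouse left out, values ranged from -0.049 to 0.25 for Adamts2, -0.056 to 0.34 for Adamts8 and -0.34 to 0.13 for Adamts15, reversing without the MS14 mouse in all 3 genes and without MS15-3 for Adamts15, and the cause was not tested.

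Some alternatives were chosen after seeing the data and leave 1 Baf155WT mouse, assumed to vary like the other genotype. In the MS13 mice alone, 133 genes had an adjusted p under 0.05 and 205 passed the fold and p limits. Adamts13 was at 0.58 (edgeR adjusted p = 0.163), and Adamts1 (-0.014), Adamts2 (-0.13), Adamts9 (-0.0067), Adamts10 (-0.29) and Adamts15 (0.59) reversed. Without both MS15 mice the counts were 16 and 76, Adamts13 was at 0.53 (edgeR adjusted p = 0.999), and Adamts9 (-0.086), Adamts10 (-0.23) and Adamts15 (0.34) reversed. No paired analysis was made, since the titles name no pairs and MS13 is the only prefix found in both genotypes. The term for the prefix, which joins the MS13 mice, is the nearest fit to a block. At 8426022 to 12469335 counts per mouse, Adamts4 and 4 other family genes were too low to be tested.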
